A study of Mus musculus with 9 samples.

Results

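Type I interferon-stimulated genes are the genes that cells switch on when interferon alpha or beta reaches their receptor. The 34 genes described here were picked by name from a table of 22564 protein-coding genes, and the genes of the OAS and IRF families were left out. All 34 were in the table, and 33 passed the filter on low counts. Their transcripts were followed in the lungs of mice whose brain alone had been irradiated, in a series that asks about bystander effects in an organ outside the beam.

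The 9 lung libraries fall into 3 groups of 3. The first group received a single whole-brain X-ray exposure of 10 Gy, the second received 3 such exposures at weekly intervals, and the third was sham irradiated. All 9, sham included, came from the GFP-LC3 strain, in which the autophagy protein LC3 carries a green fluorescent tag. The labels give no promoter for the transgene, no age or sex, no time from exposure to collection and no schedule for the sham group. They number the libraries within a group without stating that each is a separate animal, so p-values measure the spread between these samples, which may be technical.

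In the canonical pathway, interferon alpha and beta bind the receptor made of Ifnar1 and Ifnar2, and the kinases Jak1 and Tyk2 activate transcription factors, Stat2 among them. With Irf9 these form the complex ISGF3, which binds the interferon-stimulated response element (ISRE) in promoters. The proteins made in response sense foreign RNA and DNA, block translation and virus entry, and tune the pathway itself. In the lung they form an early defence against respiratory viruses.

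RefSeq promoter windows on GRCm38.p6, each running from 250 bases before a gene's start to 50 after it, were found for 24 of the 34 members. The core letters of the ISRE, GAAA and GAAA with any 2 bases between them, were searched on both strands, where the reverse complement reads TTTC and TTTC. They occurred in the windows of 11 of the 24 members (45.8%), against 3.99% of 27025 genes with a window. The 11 were Bst2, Ddx58, Eif2ak2, Ifih1, Ifit1, Ifit3, Ifitm3, Isg15, Rsad2, Stat2 and Trim30a. The letters TTCNNNGAA of the gamma-activated site, another interferon-responsive element, occurred in 7 of the 24 (29.2%), against 9.55% of genes, and overlapped the ISRE letters in Bst2 and Ifitm3. A match is a description of letters and not a measured binding site. The 250 bases upstream are printed for 3 genes because they show the motif repeated: Ifit1, among the members with the smallest p-values, and Ifit3 and Isg15, chosen after their values were seen. The windows are chr19:34640639-34640888 on the plus strand for Ifit1, chr19:34583279-34583528 on the plus strand for Ifit3, and chr4:156200819-156201068 on the minus strand for Isg15. Each is written 5′ to 3′ along its gene's strand, and capitals mark the ISRE letters.
Ifit1: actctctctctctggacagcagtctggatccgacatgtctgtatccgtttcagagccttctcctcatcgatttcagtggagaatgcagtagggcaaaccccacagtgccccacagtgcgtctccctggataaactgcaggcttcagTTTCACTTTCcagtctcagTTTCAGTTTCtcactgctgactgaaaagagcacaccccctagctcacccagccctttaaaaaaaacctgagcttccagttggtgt
Ifit3: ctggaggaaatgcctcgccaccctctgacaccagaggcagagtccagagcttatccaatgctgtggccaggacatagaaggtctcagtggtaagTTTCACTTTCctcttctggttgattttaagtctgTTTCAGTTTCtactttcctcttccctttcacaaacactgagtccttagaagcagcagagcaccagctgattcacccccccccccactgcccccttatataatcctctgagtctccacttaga
Isg15: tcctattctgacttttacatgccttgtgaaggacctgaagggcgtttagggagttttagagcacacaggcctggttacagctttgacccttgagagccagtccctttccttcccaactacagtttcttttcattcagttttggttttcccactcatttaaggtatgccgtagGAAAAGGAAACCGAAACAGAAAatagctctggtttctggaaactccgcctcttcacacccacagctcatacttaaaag
In the Ifit1 promoter the matches began 104 and 85 bases before the start, and in the Ifit3 promoter 156 and 122 bases before it. In the Isg15 promoter 3 overlapping matches began 78, 72 and 66 bases before the start and ran together into a single block.

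**Figure D1:**
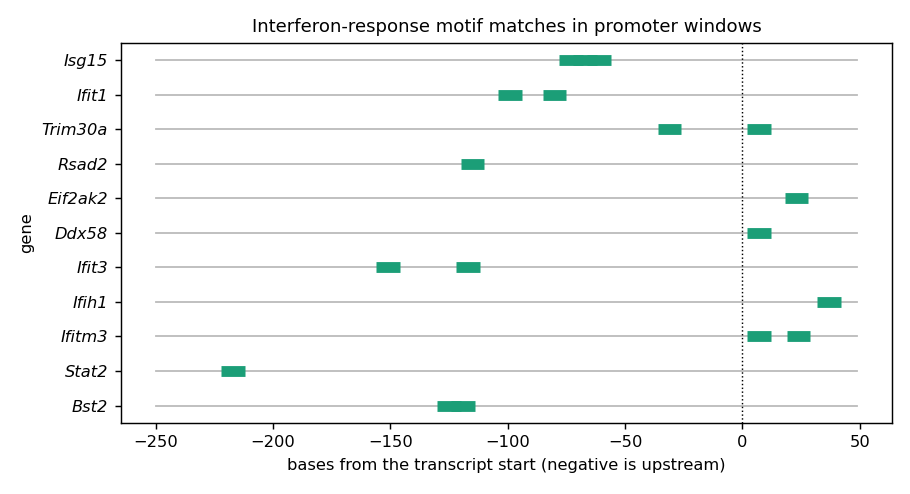
Positions of ISRE letter matches in the promoter windows of the 11 members that hold them, with distance from the gene start in bases on the x axis and a row per gene. Each mark is a match on either strand, the Trim30a row combines windows with different starts, and the repeated matches of Ifit1, Ifit3 and Isg15 lie upstream of the start.

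Libraries held 4987829 to 7381010 fragments. Lung markers were present in all 9, with 34020 to 50410 CPM (fragments scaled to library size) summed over 7 genes. Scgb1a1 made up most of these sums, at 22180 to 39240 CPM. Library 1 of the single exposure was the lowest of the 9 in Sftpc, Sftpb, Sftpa1, Ager, Pecam1 and Cdh5. Ager of type 1 alveolar cells was at 98.6 CPM there, against 604 to 1351 CPM in the other 8. Sftpc was at 1447 CPM, against 3979 to 7001 CPM. The 5 endothelial markers summed to 519 CPM in that library, against 1379 to 2609 CPM elsewhere. That library also held 9269 CPM of 6 heart muscle markers, against 57.2 and 396 CPM in the rest of its group, 80.7 to 258 CPM after 3 weekly exposures and 324 to 511 CPM in sham. Library 3 of the 3 weekly exposures held 0 fragments of 4 Y-linked genes, against 1443 to 2070 in each other library. Mitochondrial transcripts made up 7.16% of library 1 of the single exposure and 5.82% of library 1 of the 3 weekly exposures, against 1.73 to 3.10% elsewhere. Sham library 1 held 2084 CPM of 6 skeletal muscle markers, against 0.818 to 113 CPM in the other 8. It lay between the other sham libraries in 24 of the 33 members and in 70.9% of all genes tested, against 24.7 to 42.7% for libraries of the irradiated groups. What sets these libraries apart was not tested, and the counts of members below are also given with libraries left out.

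Resting levels of the members in sham lungs, in FPKM, a scale per transcript length on which genes can be compared, differed widely. The highest was Ifitm3, which blocks virus entry, at 142.6 ± 9.47 FPKM (SD, n = 3). Next came Lgals3bp, a secreted galectin-binding glycoprotein, at 61.4 ± 1.72 FPKM, and Sp100, a component of nuclear bodies, at 53.9 ± 2.71 FPKM. Among the lowest were Ifi44 at 2.01 FPKM, the GTPase gene Mx1 at 1.53 FPKM and Isg15, a ubiquitin-like modifier, at 1.26 FPKM. The related GTPase gene Mx2 was seen in a single library, with 14 fragments in sham library 3 and 0 in the other 8, and was the member not tested.

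After a single exposure most members stood above sham. The log2 fold change was above 0 in 30 of 33 (90.9%), against 53.8% of all genes tested, and its median was 0.46, against 0.03 over all genes. By edgeR's quasi-likelihood test with Benjamini-Hochberg adjustment, 0 members and 0 of 14074 genes (0.0%) had an adjusted p under 0.05. At an unadjusted p under 0.05, 12 members (36.4%) were higher and 0 lower, against 6.6% of all genes higher and 5.43% lower. DESeq2 gave 5 members (15.2%) a higher level at an adjusted p under 0.05, against 0.639% of all genes, namely Ifit1, Ifi44, Rtp4, Zbp1 and Ifi27l2a. In 12 members (36.4%) every single-exposure library lay above every sham library, against 10.2% of all genes. In bulk lung, fewer or more cells of a type cannot be told apart from less or more RNA per cell.

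The excess over sham was uneven between the 3 libraries. Against the sham mean, on a log2(CPM + 1) scale, the median member stood at 0.14, 0.96 and 0.17 in libraries 1, 2 and 3 of the single exposure. It stood at 0.31, 0.08 and 0.07 after 3 weekly exposures and at 0.00, 0.04 and -0.05 in sham. Library 2 of the single exposure exceeded every sham library in 32 of 33 members (97.0%), against 36.2% of all genes, while library 1 did so in 14 members (42.4%, against 41.1% of all genes) and library 3 in 21 (63.6%, against 34%). Library 2 was the highest of its group in 29 of 33 members, and in 33.3% of all genes. Without it, 23 of 33 members had a log2 fold change above 0, the median was 0.12, and 8 members (24.2%) were higher at an unadjusted p under 0.05, against 8.5% of all genes. These were Ddx58, Ifi27l2a, Ifi44, Ifit1, Ifitm3, Lgals3bp, Rtp4 and Zbp1.

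**Figure D2:**
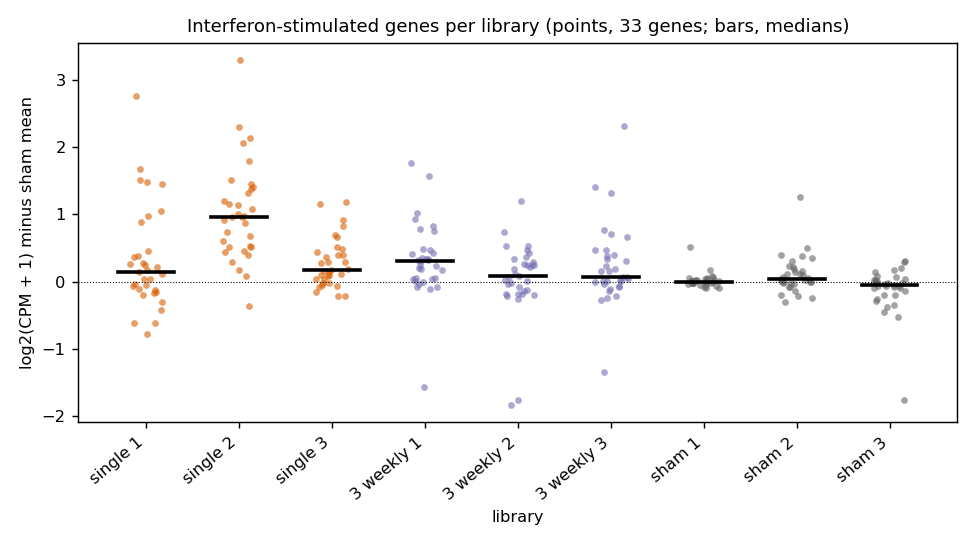
Difference of each of the 33 members from the sham mean, in log2(CPM + 1) units on the y axis, by library, with a point per member and a line at each library's median. Library 2 of the single exposure has a median of 0.96, and the medians of the other 8 libraries lie between -0.05 and 0.31.

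Leaving out other libraries also moved this comparison. Without library 1 of the single exposure, 19 members (57.6%) had an unadjusted p under 0.05, against 6.75% of all genes higher, with a median of 0.61. Without sham library 1 the number was 5 (15.2%), against 2.53% of all genes, with the median at 0.46. Without sham library 3 it was 6 (18.2%, against 3.27%). Without library 1 of both groups together it was 10 (30.3%, against 3.09%), of which 6 were among the 12.

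**Figure D3:**
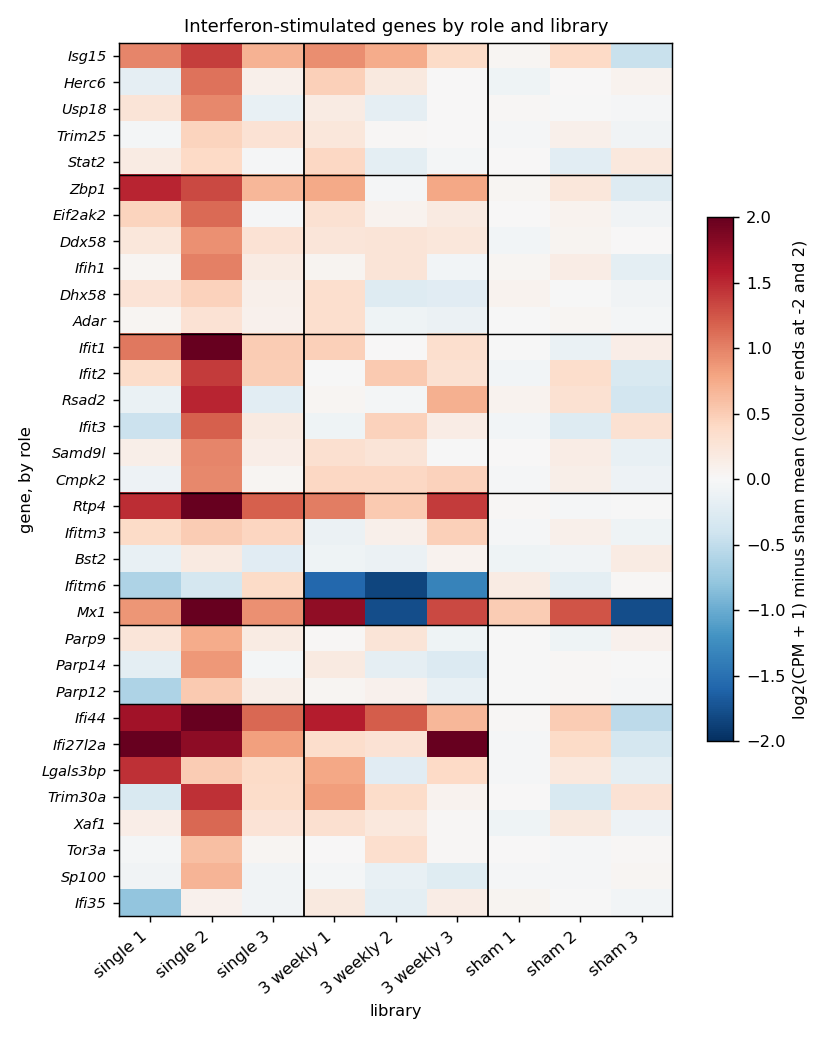
Difference of each tested member (rows, by role) from its sham mean in each of the 9 libraries (columns), in log2(CPM + 1) units, with the colour scale ending at -2 and 2. The column of library 2 of the single exposure is above every sham library in 32 of 33 members, and Ifitm6 is low in all 3 libraries of the 3 weekly exposures.

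Within its group, library 2 was also the highest in summed markers of NK and T cells, of monocytes and of alveolar macrophages. The 6 NK and T cell markers, all in the table, summed to 24.0, 90.0 and 43.7 CPM in the single-exposure libraries, 31.0 to 41.0 CPM after 3 weekly exposures and 31.3 to 37.6 CPM in sham. The 6 monocyte markers, all in the table, summed to 602, 1518 and 595 CPM in the single-exposure libraries, 618 to 2997 CPM after 3 weekly exposures and 420 to 444 CPM in sham. The gene Chil3 among them, which alveolar macrophages also make, was at 212, 1097 and 339 CPM in the single-exposure libraries, 415 to 2710 CPM after 3 weekly exposures and 195 to 237 CPM in sham. Ccr2, the chemokine receptor of inflammatory monocytes, was at 82.1, 202 and 107 CPM after a single exposure, 81.9 to 198 CPM after 3 weekly exposures and 79.4 to 83.7 CPM in sham. Ly6c2 and Plac8 were also highest in library 2 of the single exposure, but F13a1 and Vcan in library 1. F13a1 was at 125.0, 38.9 and 55.7 CPM there, and Vcan at 132.0, 59.6 and 48.7 CPM. In library 1 of the 3 weekly exposures, Chil3 made up 2710 of the 2997 CPM. Ly6c2 was at 8.03 CPM in that library, below sham (28.9 to 39.4 CPM). The 5 alveolar macrophage markers, all in the table, summed to 144, 229.5 and 147 CPM after a single exposure. Sums were 143 to 184 CPM after 3 weekly exposures and 108 to 116 CPM in sham. All 6 irradiated sums lay above sham, but Mrc1 made up most of every sum. Mrc1 was at 135.5, 193.2 and 120.8 CPM after a single exposure and 92.1 to 98.8 CPM in sham. In library 1 of the single exposure, Ear1 and Fabp1 were at 0 CPM and Siglecf at 3.64 CPM, all below sham. Marco was above sham in that library. The 6 markers of plasmacytoid dendritic cells, known as producers of interferon alpha, were all in the table and summed to 484.9, 387.3 and 344.2 CPM after a single exposure, 279.9 to 355.5 CPM after 3 weekly exposures and 300.5 to 328.7 CPM in sham. Here library 1, not library 2, had the highest sum, but that order rested on Cox6a2. This gene was at 254.9, 2.24 and 12.3 CPM after a single exposure and at 3.54 to 13.6 CPM in the other groups. Library 1 is also the one with high heart muscle markers. In the other libraries Tcf4 made up most of each sum, at 270.8 to 376.2 CPM. Within the group Siglech, Ccr9, Tcf4 and Pacsin1 were highest in library 2, and Klk1 in library 1. Siglech was at 2.73, 3.44 and 2.23 CPM after a single exposure, 0.545 to 1.97 CPM after 3 weekly exposures and 1.77 to 7.35 CPM in sham. Pacsin1 was at 3.34, 3.62 and 1.92 CPM after a single exposure and 1.13 to 1.60 CPM in sham. No listed marker was at 0 in every library, and the part of these cells in the interferon-stimulated transcripts was not tested.

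Among members that signal or tune the pathway, all 5 had a log2 fold change above 0 after a single exposure, against 53.8% of all genes, and 1 was higher at an unadjusted p under 0.05, against 6.6% of all genes. Isg15, conjugated to other proteins, had 18, 23 and 13 fragments after a single exposure, 15, 16 and 9 after 3 weekly exposures and 6, 8 and 2 in sham. Single-exposure and sham libraries did not overlap for this scarce transcript, which counting error limits. Its log2 fold change was 1.59 ± 0.55 (SE, n = 3 each; adjusted p = 0.338 by edgeR's quasi-likelihood test). Herc6, the main Isg15 ligase of mice, had a log2 fold change of 0.45 ± 0.31, and Usp18, which removes Isg15 and dampens receptor signalling, 0.45 ± 0.28. Trim25, a ubiquitin ligase, was at 0.24 ± 0.15, and Stat2, a subunit of ISGF3, at 0.19 ± 0.20.

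All 6 sensors of nucleic acids had a log2 fold change above 0 after a single exposure (53.8% of all genes), 3 of them at an unadjusted p under 0.05 (6.6% of all genes). Zbp1, which binds left-handed nucleic acids and can start cell death (GRCm38 chr2:173206612-173218923), was at 29.6, 25.7 and 16.0 CPM after a single exposure, 16.9, 9.54 and 17.2 CPM after 3 weekly exposures and 9.93, 11.5 and 7.87 CPM in sham. Every single-exposure library exceeded every sham library, and library 1, not library 2, was the highest. Single exposure over sham gave a log2 fold change of 1.28 ± 0.31 (SE, n = 3 each; adjusted p = 0.240 by edgeR's quasi-likelihood test). DESeq2 gave an adjusted p of 0.0295, and over all alternatives the adjusted p ranged from 0.0295 to 0.850.

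The RNA helicase gene Ddx58, which encodes RIG-I, was at 105.4, 170.9 and 110.8 CPM after a single exposure, 107.0, 107.8 and 105.9 CPM after 3 weekly exposures and 86.5, 93.7 and 90.5 CPM in sham. Both irradiated groups lay wholly above sham, with log2 fold changes of 0.52 ± 0.18 after a single exposure and 0.24 ± 0.18 after 3 weekly exposures. Eif2ak2, the kinase PKR that halts translation on double-stranded RNA, was at 70.4, 113.8 and 50.6 CPM after a single exposure, 63.7, 53.6 and 58.2 CPM after 3 weekly exposures and 51.6, 53.5 and 48.6 CPM in sham. Library 3 of the single exposure overlapped sham for this gene, and the log2 fold change was 0.61 ± 0.26. The helicases Ifih1 and Dhx58 were at 0.47 ± 0.25 and 0.32 ± 0.27, and the RNA editing enzyme gene Adar at 0.14 ± 0.15.

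Of the effectors that act on RNA, translation and nucleotides, all 6 had a log2 fold change above 0 after a single exposure (53.8% of all genes) and 2 were higher at an unadjusted p under 0.05 (6.6% of all genes). Ifit1, which binds viral RNA at its 5′ end and whose promoter is printed above (GRCm38 chr19:34640871-34650009), was at 60.8, 123.4 and 41.3 CPM after a single exposure, 40.1, 28.8 and 36.5 CPM after 3 weekly exposures and 28.7, 26.0 and 31.7 CPM in sham. The single-exposure libraries lay wholly above both other groups, whereas those of the 3 weekly exposures overlapped sham. Over sham its log2 fold change was 1.38 ± 0.35 (SE, n = 3 each; adjusted p = 0.250 by edgeR's quasi-likelihood test). DESeq2 gave an adjusted p of 0.0231, within a range of 0.0231 to 0.850 over the alternatives, and without library 2 the log2 fold change was 0.82.

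Ifit2, a second member of this family, was at 37.6, 78.5 and 41.0 CPM after a single exposure, 28.8, 42.1 and 36.2 CPM after 3 weekly exposures and 27.9, 37.3 and 23.4 CPM in sham. The single-exposure libraries lay above sham, by a small margin for library 1. Ifit3 was at 24.7, 78.7 and 38.3 CPM after a single exposure, 31.8, 46.9 and 37.5 CPM after 3 weekly exposures and 32.4, 28.1 and 41.7 CPM in sham, so only library 2 exceeded sham in the first group. Reads of Ifit3 can be split with its near-identical copy Ifit3b, which makes its value uncertain. Rsad2 (viperin), which makes a chain-terminating nucleotide, showed the same layout, with 53.2 CPM in library 2 and 16.2 and 15.3 CPM in libraries 1 and 3 of the single exposure, 17.4 to 29.8 CPM after 3 weekly exposures and 13.6 to 22.2 CPM in sham. Cmpk2, a nucleotide kinase, and Samd9l, a restrictor of translation, were at log2 fold changes of 0.39 ± 0.27 and 0.46 ± 0.24.

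Of the 4 proteins of membranes and virus entry or release, 2 had a log2 fold change above 0 after a single exposure (53.8% of all genes), both at an unadjusted p under 0.05 (6.6% of all genes higher). Rtp4, a receptor transporter protein with antiviral activity (GRCm38 chr16:23520291-23614222), was at 31.6, 50.4 and 25.7 CPM after a single exposure, 22.7, 15.8 and 29.99 CPM after 3 weekly exposures and 10.9, 10.6 and 10.6 CPM in sham. All 6 irradiated libraries lay above the tightly grouped sham libraries. After a single exposure its log2 fold change was 1.74 ± 0.31 (SE, n = 3 each; adjusted p = 0.142 by edgeR's quasi-likelihood test), the smallest p of any member in this comparison. DESeq2 gave it an adjusted p of 0.000284, and the alternatives ranged from 0.000284 to 0.850. The Rtp4 locus overlaps the antisense gene Masp1, which had 3 to 18 fragments per library.

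Ifitm3 was at 121.5, 132.7 and 126.1 CPM after a single exposure, 85.5, 100.1 and 129.4 CPM after 3 weekly exposures and 91.1, 100.3 and 87.8 CPM in sham. Here the 3 single-exposure libraries were close together and all above sham, with a log2 fold change of 0.45 ± 0.16. Bst2, the tetherin that holds budding viruses at the cell surface, was at a log2 fold change of -0.06 ± 0.17. Ifitm6, taken up with the 3 weekly exposures, was at -0.17 ± 0.46.

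The single GTPase tested, Mx1, which blocks viral replication and is non-functional in many inbred mouse strains, had 35, 92 and 34 fragments after a single exposure, 61, 0 and 46 after 3 weekly exposures and 24, 38 and 0 in sham. With libraries at 0 in the 3 weekly and sham groups, its log2 fold change of 1.26 ± 1.28 after a single exposure was within its error. Among the ADP-ribosyltransferases, Parp9 was at 69.5, 98.6 and 65.8 CPM after a single exposure, 59.9, 70.0 and 55.4 CPM after 3 weekly exposures and 58.1, 55.4 and 62.4 CPM in sham. Its libraries of the single exposure all exceeded sham, with a log2 fold change of 0.41 ± 0.18, although its locus overlaps Dtx3l on the other strand and the strand setting of the counting is not given in the sources used here. Parp14 and Parp12 were at 0.29 ± 0.27 and 0.08 ± 0.24.

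The remaining 8 members held the largest log2 fold change. Ifi44, a cytoplasmic interferon-induced protein (GRCm38 chr3:151730922-151749960), was at 20.8, 66.3 and 14.2 CPM after a single exposure, 19.4, 14.7 and 9.83 CPM after 3 weekly exposures and 5.93, 8.67 and 3.74 CPM in sham. All 6 irradiated libraries exceeded sham, library 2 of the single exposure by the most. After a single exposure the log2 fold change was 2.46 ± 0.59 (SE, n = 3 each; adjusted p = 0.233 by edgeR's quasi-likelihood test), with an adjusted p of 0.00383 by DESeq2 and a range of 0.00383 to 0.850 over the alternatives. Without library 2 it was 1.51.

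Ifi27l2a, of a family of small hydrophobic interferon-induced proteins (GRCm38 chr12:103442167-103443680), was at 122.0, 61.6 and 31.0 CPM after a single exposure, 22.0, 20.98 and 89.1 CPM after 3 weekly exposures and 16.7, 22.4 and 13.2 CPM in sham. Library 1 was the highest after a single exposure, and library 3 alone was high after 3 weekly exposures. The 5 adipocyte markers, all in the table and none at 0 in every library, were high in these libraries too, summing to 641, 6.20 and 31.4 CPM after a single exposure, 2.62, 14.9 and 685 CPM after 3 weekly exposures and 37.4 to 67.1 CPM in sham. Their part in the Ifi27l2a level was not tested. The log2 fold change was 2.04 ± 0.65 after a single exposure (SE, n = 3 each; adjusted p = 0.311 by edgeR's quasi-likelihood test), with an adjusted p of 0.0470 by DESeq2 and a range of 0.0470 to 0.850. Without library 1 of the single exposure it was 1.41 ± 0.60. After 3 weekly exposures it was 1.34 ± 0.64 (adjusted p = 0.664 by edgeR), and 0.30 without library 3 of that group.

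Lgals3bp also peaked in library 1, at 287.6, 149.1 and 136.6 CPM after a single exposure, 179.4, 89.3 and 136.8 CPM after 3 weekly exposures and 102.5, 121.0 and 90.9 CPM in sham. Its single-exposure libraries lay above sham, with a log2 fold change of 0.87 ± 0.33. Without library 1 of that group Lgals3bp was not among the members at an unadjusted p under 0.05. Trim30a, a regulator of inflammatory signalling, was at 45.5, 156.5 and 73.1 CPM after a single exposure, 101.0, 72.8 and 59.2 CPM after 3 weekly exposures and 56.9, 45.2 and 69.3 CPM in sham, so library 1 of the single exposure lay within sham. Xaf1, a partner of an apoptosis inhibitor, was at a log2 fold change of 0.61 ± 0.28, Tor3a at 0.23 ± 0.19, Sp100 at 0.23 ± 0.20 and Ifi35, a partner of Nmi, at -0.22 ± 0.24.

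**Figure D4:**
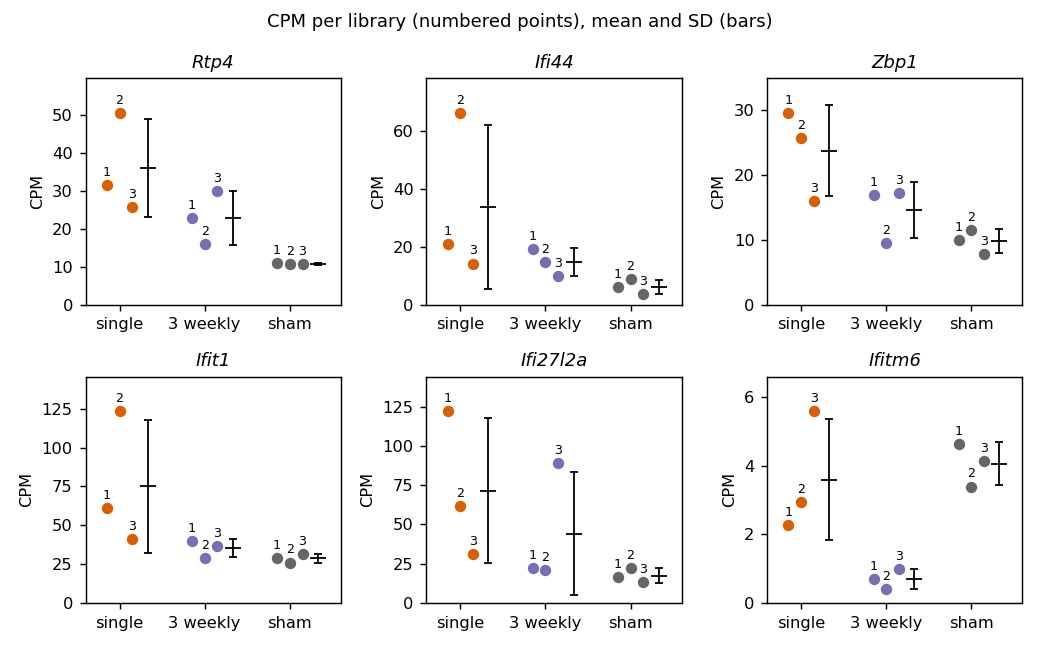
Normalized counts (CPM, y axis) of the 6 members with the smallest p-values in the 9 libraries, a panel per gene, with points for libraries and a bar for the group mean ± SD (n = 3). Rtp4 and Ifi44 lie above sham in all 6 irradiated libraries, Zbp1, Ifit1 and Ifi27l2a in all 3 of the single exposure, and Ifitm6 lies below both other groups after 3 weekly exposures.

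After 3 weekly exposures the members stood closer to sham when all 9 libraries were kept. The log2 fold change was above 0 in 27 of 33 (81.8%), against 52.4% of all genes tested. It was below 0 in 6 (18.2%, against 47.6%), and its median was 0.19, against 0.02 over all genes. Without library 2 of the single exposure this order did not hold. The median was then 0.12 after a single exposure, with 23 of 33 members above 0, and 0.19 after 3 weekly exposures. By edgeR's quasi-likelihood test with Benjamini-Hochberg adjustment, 0 members and 0 genes (0.0%) were called. At an unadjusted p under 0.05, 1 member was higher (3.03%, against 4.26% of all genes) and 1 lower (3.03%, against 3.64%), or 2 in either direction (6.06%, against 7.9%), shares near those of all genes. DESeq2 called 0 members higher (0.213% of all genes) and 1 lower (3.03%, against 0.419%). Every library lay above every sham library in 5 members (15.2%, against 10.8% of all genes), namely Ifi44, Ddx58, Rtp4, Eif2ak2 and Cmpk2, and below in 2 (6.06%, against 11.1%), namely Ifitm6 and Sp100. The 2 members at an unadjusted p under 0.05 became 4 without sham library 2 (12.1%, against 6.2% of all genes in either direction) and 4 without library 1 of the single exposure (12.1%, against 12.2%). They became 5 without library 2 of the single exposure (15.2%, against 9.4%) and 4 without library 2 of the 3 weekly exposures (12.1%, against 7.9%).

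The higher of the 2 was Rtp4, with a log2 fold change of 1.09 ± 0.30 (SE, n = 3 each; adjusted p = 0.433 by edgeR's quasi-likelihood test). That of Ifi44 was 1.25 ± 0.58 and that of Isg15 1.11 ± 0.55, each short of an unadjusted p of 0.05. Zbp1 was at 0.57 ± 0.31 and Ifit1 at 0.29 ± 0.35, with libraries that overlapped sham. Cmpk2 was at 29.7, 29.7 and 30.6 CPM after 3 weekly exposures, against 21.6, 23.9 and 20.5 CPM in sham, a log2 fold change of 0.45 ± 0.27. The Cmpk2 libraries of the 3 weekly exposures were nearly level with each other and all above sham.

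Ifitm6, a family member of Ifitm3 known in mice from myeloid cells (GRCm38 chr7:141015699-141017924), was the lower of the 2. It had 0.698, 0.409 and 0.983 CPM after 3 weekly exposures, 2.28, 2.93 and 5.59 CPM after a single exposure and 4.64, 3.39 and 4.13 CPM in sham. These rest on 4, 3 and 6 fragments after 3 weekly exposures, 15, 17 and 35 after a single exposure and 29, 18 and 21 in sham. All 3 libraries of the 3 weekly exposures lay below every library of both other groups. The log2 fold change against sham was -2.53 ± 0.52 (SE, n = 3 each; adjusted p = 0.365 by edgeR's quasi-likelihood test), and DESeq2 gave an adjusted p of 0.0220, in a range of 0.0220 to 1.00 over the alternatives. Markers of neutrophils, 6 of 6 in the table and none at 0 in every library, summed to 39.3, 72.6 and 34.7 CPM after 3 weekly exposures, 9.10, 37.7 and 313 CPM after a single exposure and 249, 126 and 376 CPM in sham. They were low in all 3 libraries of the 3 weekly exposures, and also in libraries 1 and 2 of the single exposure. Their part in the Ifitm6 level was not tested.

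**Figure D5:**
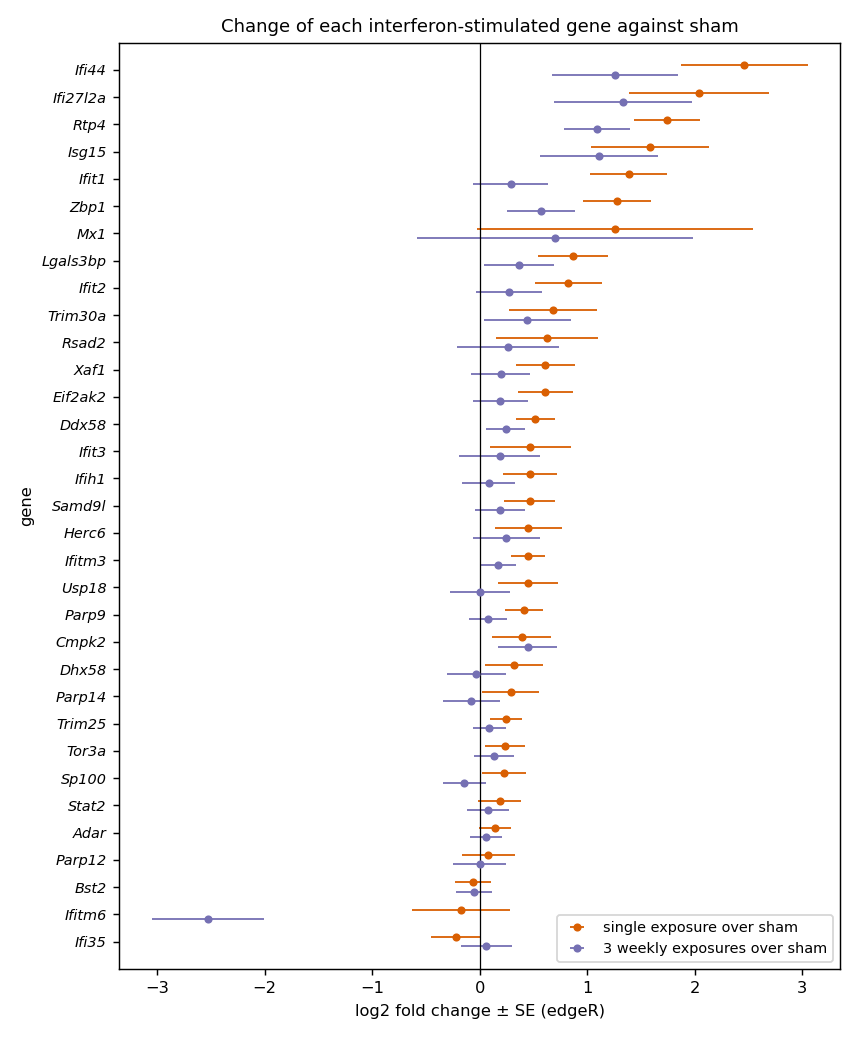
Log2 fold change against sham (x axis) of each tested member (rows), for a single exposure above and 3 weekly exposures beneath it, with bars of 1 standard error (n = 3 libraries per group). Single-exposure values lie above 0 in 30 of 33 members and values of the 3 weekly exposures in 27, and Ifitm6 after 3 weekly exposures lies farthest below, at -2.53.

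Set directly against a single exposure, 3 weekly exposures had lower values in 30 of 33 members (90.9%, against 51.7% of all genes tested), with a median log2 fold change of -0.36, against -0.01 over all genes. The 3 members above 0 (9.09%, against 48.3%) were Bst2, Cmpk2 and Ifi35. By edgeR's quasi-likelihood test with Benjamini-Hochberg adjustment, 0 members and 0 genes (0.0%) were called, and DESeq2 called 0 members, against 0.0142% of all genes higher and 0.0213% lower. At an unadjusted p under 0.05, 3 members were lower (9.09%, against 3.74% of all genes) and 0 higher (against 2.79%), with 6.54% of all genes past that level in either direction. These were Ifit1, at -1.10 ± 0.35, Zbp1, at -0.71 ± 0.31, and Ifitm6, at -2.35 ± 0.52 (SE, n = 3 each; adjusted p = 0.754 for each by edgeR). In 2 members, Ifit1 and Ifitm6, every library of the 3 weekly exposures lay below every single-exposure library (6.06%, against 3.86% of all genes), and in 0 members above (against 4.1%). Without library 2 of the single exposure, 13 of 33 members were above 0 and the median was -0.01. Then 3 members had an unadjusted p under 0.05 (9.09%, against 8.04% of all genes), with Ifit1 and Ifitm6 lower and Cmpk2 higher. Without library 1 of the single exposure the number was 10 (30.3%, against 7.34%), without library 3 of the single exposure 9 (27.3%, against 12.7%), and without library 3 of the 3 weekly exposures 6 (18.2%, against 6.07%), all of them lower.

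The members had similar profiles over the 9 libraries. The correlation of each member with the mean of the other members had a median of 0.77, and for all other genes the median was -0.02. These correlations describe 9 points that share library 2 of the single exposure as their extreme, and no test was made. They exceeded 0.5 in 27 of 33 members and 0.9 in 6, were highest for Eif2ak2 at 0.94 and lowest for Ifitm6 at -0.10. Genes of the OAS and IRF families were also left out of the ranking of other genes. The 10 whose profile was then most like the members' mean were Cysltr1, Cd274, Ifi203, Naip2, Phf11d, Rnf4, Capza1, Cd44, Slc9a9 and Rnf213, with correlations of 0.98 for Cysltr1 and 0.93 for Rnf213. Members with and without ISRE letters in their promoter window were not tested against each other. The 11 with the letters had a median log2 fold change of 0.52 after a single exposure (from -0.06 to 1.59) and the 13 without had 0.39 (from -0.22 to 2.46). At an unadjusted p under 0.05, 5 of the 11 and 3 of the 13 were higher, against 6.6% of all genes. The 10 members with no window, among them Rtp4, Zbp1 and Ifi27l2a, are in neither set. After 3 weekly exposures both medians were 0.19.

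The interferon genes looked up were at or near the limit of detection, and other interferon genes were not examined. Of 10 interferon genes looked up, 8, including Ifnb1 and Ifna1, had 0 fragments in every library, which allows up to 3 fragments per library, or 0.406 to 0.602 CPM. Ifna2 had 4 fragments in a single library and Ifng, the type II interferon, 16 over all 9. The receptor gene Ifnar1 was at 100.9, 140.6 and 120.5 CPM after a single exposure, 131.1, 117.0 and 120.3 CPM after 3 weekly exposures and 111.6, 111.6 and 106.1 CPM in sham. Single-exposure libraries overlapped sham, and those of the 3 weekly exposures lay slightly above it. Of 6 receptor genes tested, 0 had an unadjusted p under 0.05 in either comparison with sham. The share of all genes was 12.0% after a single exposure and 7.9% after 3 weekly exposures, and 6 genes are too few to set against it.

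Among genes of signal transduction, Socs3, a feedback inhibitor of cytokine signalling, had a log2 fold change against sham of -1.08 ± 0.37 after a single exposure and -1.03 ± 0.37 after 3 weekly exposures, both at an unadjusted p under 0.05. The phosphatase gene Ptpn6 was at 0.52 ± 0.17 after a single exposure.

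Among 18 genes of nucleic acid sensing, 5 were higher and 0 lower at an unadjusted p under 0.05 after a single exposure, against 6.6% and 5.43% of all genes. After 3 weekly exposures 1 was higher and 0 lower, against 4.26% and 3.64%. Trex1, the exonuclease that clears cytosolic DNA, was at 12.1, 15.7 and 7.18 CPM after a single exposure, 6.11, 6.13 and 11.8 CPM after 3 weekly exposures and 3.68, 4.52 and 4.53 CPM in sham. All 6 irradiated libraries exceeded sham, with log2 fold changes of 1.46 ± 0.39 after a single exposure and 0.92 ± 0.39 after 3 weekly exposures. The endosomal RNA sensor gene Tlr7 was at 0.81 ± 0.22 after a single exposure and 0.09 ± 0.22 after 3 weekly exposures. Ifi204, a DNA sensor gene, was at 1.16 ± 0.39 after a single exposure and -0.46 ± 0.40 after 3 weekly exposures.

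Interferon gamma-induced GTPases and chemokines had 5 of 18 tested genes higher and 0 lower at an unadjusted p under 0.05 after a single exposure (all genes 6.6% and 5.43%), and 0 in either direction after 3 weekly exposures (all genes 7.9%). Irgm2, a GTPase of defence against intracellular pathogens, was at 0.68 ± 0.20 after a single exposure and 0.32 ± 0.20 after 3 weekly exposures, and Iigp1, of the same family, at 0.85 ± 0.32 and 0.48 ± 0.32 in that order. Gbp8 went the other way, at -0.638 ± 0.344 after a single exposure and -0.743 ± 0.345 after 3 weekly exposures. Of 49 further interferon-induced genes, 16 were higher and 1 lower after a single exposure, against 6.6% and 5.43% of all genes. After 3 weekly exposures 1 was higher and 2 lower than in sham, against 4.26% and 3.64%. The 2 lower were Nmi, at -0.896 ± 0.276, and Trim30d, at -1.295 ± 0.47. After a single exposure Nmi was at -0.596 ± 0.274 and Trim30d at 0.407 ± 0.453. Set against a single exposure, 2 were higher and 12 lower after 3 weekly exposures, against 2.79% and 3.74%. Dtx3l, the partner of Parp9, was at 0.68 ± 0.15 after a single exposure and 0.25 ± 0.15 after 3 weekly exposures. Ifit1bl1, a gene of the Ifit family, was at 2.14 ± 0.58, and Epsti1 at 0.89 ± 0.24 after a single exposure. Over the lists of receptors, sensing, GTPases with chemokines, and further induced genes, 0 genes had an adjusted p under 0.05 in edgeR's quasi-likelihood test. DESeq2 gave adjusted p-values under 0.05 to 2 of them after a single exposure, Dtx3l and Ifit1bl1, and to 0 in the other comparisons.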

How the data were processed

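Per the labels' protocols, frozen lungs were extracted with Trizol, ribosomal RNA was depleted, and stranded total RNA libraries were sequenced on an Illumina instrument. Cutadapt 1.9.3, HISAT2 2.0.4 and the build mm10 are named, per the submitters' processing notes. Which program estimated expression, and on what annotation, is not given in the sources used here. Per the file headers, the deposited table holds FPKM and a count per gene and library.

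The deposited counts were estimated counts, in steps of 0.854 to 1.19 per library. Divided by the step, 94.3 to 95.4% lay within 0.1 of a whole number, and they were rounded before testing. FPKM were used for levels and with limma. Counts passing filterByExpr (14074 genes) were scaled by TMM and tested with edgeR 4.0.16 in R 4.3.3, with all 9 libraries in 1 quasi-likelihood fit (6 residual degrees of freedom, common coefficient of variation 0.316). CPM use TMM factors. SE is the absolute log2 fold change over the square root of F. DESeq2 1.42.0, limma 3.58.1, other filters and scalings, and left-out libraries were alternatives. The pipeline was tested on simulated data. Floors cover counting error only, whereas SE and SD also hold the spread between libraries. At these depths, transcripts with few fragments, such as Isg15 and Ifitm6, are imprecise.

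The members and lists were chosen with earlier results of these data known. Full statistics go to the 4 members with the smallest p per comparison. Of each list, genes named came from the 3 smallest p after a single exposure and the 2 smallest after 3 weekly exposures. Not all of these are named. A result on the signal transduction list is not reported here. Coordinates are GENCODE M21 or the deposited loci on GRCm38, counted from 1.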

Additional observations from a re-analysis of the deposited data

How the results depend on the processing

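Over 18 alternatives for each of the 6 members given full statistics in 3 comparisons, 314 log2 fold changes kept their direction and side of the threshold, 6 passed it, all with DESeq2, and 4 reversed. The reversals were all of Ifitm6 after a single exposure against sham, which was at 0.041 with limma on log2(FPKM + 1), 0.036 with limma on log2(FPKM + 0.1), 0.07 without library 1 of the single exposure, and 0.18 without library 1 of the single exposure and of sham, an alternative chosen after seeing the data. Genes called for single exposure against sham numbered 198 with DESeq2, 3 with limma on log2(FPKM + 1) and 5 on log2(FPKM + 0.1). For 3 weekly exposures against sham they numbered 89 with DESeq2, 2 with limma on log2(FPKM + 0.1) and 9 with the 6 libraries compared fitted alone. For 3 weekly exposures against a single exposure they numbered 5 with DESeq2 and 1 with limma on either scale. Members at an unadjusted p under 0.05 for 3 weekly exposures against sham numbered 4 with DESeq2 (12.1%, against 8.04% of all genes) and 6 with those 6 libraries alone (18.8%, against 14%). For 3 weekly against a single exposure they numbered 5 with DESeq2 (against 6.67% of all genes), 6 with limma on either scale (5.68% and 5.73%), 5 with no filter (6.42%), and 6 without library 1 of sham and of the single exposure (4.43%), when 1 member was above 0. The cause of these differences was not tested.

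Leaving out 1 library at a time, genes called by edgeR stayed at 0 in all 3 comparisons. Members at an unadjusted p under 0.05 ranged from 5 to 19 for single exposure against sham, 2 to 5 for 3 weekly exposures against sham and 2 to 10 for 3 weekly against a single exposure. The share of all genes at that level also moved, from 5.34 to 16.3%, 3.44 to 12.2% and 4.23 to 12.7%. With all 9 libraries, 53.8%, 52.4% and 48.3% of all genes were above 0. Members above 0 ranged from 23 to 32, 23 to 28 and 1 to 13 in the same comparisons, and the median log2 fold change from 0.12 to 0.61, 0.12 to 0.22 and -0.50 to -0.014. The Ifitm6 value after a single exposure ranged from -0.639 to 0.07.

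The groups share replicate numbers in the labels, and whether these pair the samples cannot be told. Deviations from group means correlated at -0.08 to 0.33 for same-numbered libraries and at -0.40 to 0.26 for differently numbered ones. With 3 libraries per group these values are too few to decide it. With the replicate number as a block, members at an unadjusted p under 0.05 numbered 11 for single exposure against sham (against 11.7% of all genes), 4 for 3 weekly exposures against sham (7.67%) and 4 for 3 weekly against a single exposure (5.58%), and 0 genes were called. With 3 libraries per group and members at 1 to 10 fragments in some libraries, small differences could not be detected.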

Other observations

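Several members are neighbours in the genome and can be set side by side. Rsad2 and Cmpk2 lie 12752 bases apart on chromosome 12, and after a single exposure their log2 fold changes were 0.63 ± 0.48 and 0.39 ± 0.27 (SE, n = 3 each). After 3 weekly exposures Rsad2 was at 0.26 ± 0.48 and Cmpk2 at 0.45 ± 0.27. Ifitm3 and Ifitm6 lie 4929 bases apart on chromosome 7, and after 3 weekly exposures they were at 0.17 ± 0.16 and -2.53 ± 0.52. On chromosome 19, Ifit2 and Ifit3 lie 7112 bases apart and Ifit3 and Ifit1 52140, with 0.83 ± 0.31 for Ifit2, 0.47 ± 0.38 for Ifit3 and 1.38 ± 0.35 for Ifit1 after a single exposure. Differences between neighbours were not tested.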
